A study of Mus musculus with 2 samples.

Results

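Transcripts annotated as retained-intron forms were examined at the level of single transcripts in mouse cerebral cortex. A member is a transcript of the biotype retained_intron whose mean level over both libraries was at least 5 TPM (the usual transcript abundance unit, corrected for transcript length and scaled to a fixed sum over all rows) in the tables of estimated counts. This rule took 2696 of the 21848 retained-intron transcripts (12.3%), out of 141767 transcripts in all. The members came from 1879 genes of the 9421 that have such a form, and 2674 of the 2696 belonged to protein-coding genes. They were selected on their measured level, so the levels and the shares computed from them are a description and carry no test. The 3 members nearest to the limit were Rxrb-210 (3.85 TPM in replicate 1 and 6.15 in replicate 2), Scai-207 (4.57 and 5.43) and Hnrnpll-204 (4.04 and 5.96). The nearest transcripts left out were Csrnp3-205 (3.73 and 6.27), Myg1-207 (4.79 and 5.21) and Btrc-210 (4.79 and 5.21).

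The tissue was the cerebral cortex of the left side, taken at the age of 2 months from 2 males of B6CASTF1/J, the hybrid of a C57BL/6J by CAST/EiJ cross, and its total RNA was sequenced after ribosomal RNA had been reduced. Each animal gave 1 library, made from 300 ng of RNA with ERCC spike-ins, and both libraries form 1 group. There is therefore no comparison of conditions, the spread given as SD is that between 2 animals, and an exact sign test over them cannot go below p = 0.5. Each library was quantified by the authors a second time, from alignments to the transcriptome, in tables of expected counts. These second tables were used here to check each member, and since they come from the same libraries they are no independent replicate.

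Retained-intron transcripts keep intron sequence that other transcripts of the gene remove. Many stay in the nucleus, and many of those exported carry an early stop codon and are degraded by nonsense-mediated decay. Genes of splicing factors, such as the SR proteins and the CLK kinases that phosphorylate them, are known for introns that stay in the polyadenylated transcript until a signal triggers their removal. Total RNA, which is not selected for polyadenylated or cytoplasmic RNA, includes nuclear and unfinished transcripts. The label retained_intron is the annotation's own: it marks a transcript model, not a measurement of splicing in this tissue. In bulk tissue, a transcript made by fewer cells and less of it per cell cannot be told apart.

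The annotation allows each retained intron to be located. Of the members, 854 (31.7%) held at least 1 intron of a protein-coding transcript of the same gene whole inside an exon, against 29.4% of the retained-intron transcripts under 5 TPM. The following 5 introns are shown because their transcripts were abundant in both quantifications and the introns are short enough to print whole. They are given 5′ to 3′ with 3 exon bases on each side, as the mm10 transcript sequences of GENCODE M21 hold them. Capitals mark the first 6 intron bases, the last 3 and, where there is one, the first stop codon in the reading frame of the exon before. Rps20 encodes a protein of the small ribosomal subunit, Prelid1 a mitochondrial lipid transfer protein, Ncl the nucleolar protein nucleolin, Mrps26 a mitochondrial ribosomal protein, and Trim28 a transcriptional corepressor.
Rps20-201, intron of 192 bases at chr4:3835292-3835483, minus strand: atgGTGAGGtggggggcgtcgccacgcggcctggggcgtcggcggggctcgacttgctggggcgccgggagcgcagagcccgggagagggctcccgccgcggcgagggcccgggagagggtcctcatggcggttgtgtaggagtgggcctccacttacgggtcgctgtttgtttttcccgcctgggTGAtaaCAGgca
Prelid1-202, intron of 82 bases at chr13:55324445-55324526, plus strand: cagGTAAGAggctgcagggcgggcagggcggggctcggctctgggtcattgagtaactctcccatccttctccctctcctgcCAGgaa
Ncl-202, intron of 190 bases at chr1:86352320-86352509, minus strand: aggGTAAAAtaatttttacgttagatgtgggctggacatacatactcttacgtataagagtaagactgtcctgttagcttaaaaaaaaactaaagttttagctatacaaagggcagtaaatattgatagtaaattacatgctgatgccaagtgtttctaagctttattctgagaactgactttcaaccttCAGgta
Mrps26-201, intron of 80 bases at chr2:130564228-130564307, plus strand: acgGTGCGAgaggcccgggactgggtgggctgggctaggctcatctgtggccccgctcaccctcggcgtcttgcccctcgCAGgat
Trim28-203, intron of 79 bases at chr7:13030376-13030454, plus strand: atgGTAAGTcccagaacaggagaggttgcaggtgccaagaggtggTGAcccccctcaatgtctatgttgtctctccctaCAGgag
All 5 begin with GT and end with AG. No stop codon in frame was found in the Prelid1 and Mrps26 introns, at 82 and 80 bases. The stop in the Ncl intron begins at base 2 and lies within the capitals of its start, while that of Rps20 begins at base 184 of 192.

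Ncl-202 was at 55.7 TPM in replicate 1 and 56.6 in replicate 2, which was 56.2% ± 0.973 (SD, n = 2) of the summed TPM of all Ncl transcripts. The expected-count tables placed it at 39.4 and 37.6 TPM and 65.4% ± 1.76 of the gene. Both quantifications thus put this form above the protein-coding Ncl-201, which was at 21.6 TPM in the first tables and 14.6 in the second. Mrps26-201 was at 47.9 and 46.8 TPM, or 91.4% ± 0.328 of its gene, and Prelid1-202 at 86.2 and 85.1 TPM, or 78.8% ± 2.14. Their shares in the expected-count tables were 90.9% ± 0.394 and 92.1% ± 0.762. Rps20-201 (169 and 142 TPM) and Trim28-203 (27.4 and 28.4 TPM) held 43.3% ± 4.38 and 18.7% ± 0.137 of their genes, and 74.2% ± 9.38 and 28.5% ± 0.914 in the second tables. Replicate 1 was the higher for Rps20-201, Prelid1-202 and Mrps26-201, and replicate 2 for Ncl-202 and Trim28-203.

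For 4 members of splicing factor and splicing kinase genes, the edges of a long intron of each are shown, because this is the gene group for which detained introns are best known. Each line gives a 30-base window at the 5′ end of the intron (3 exon bases, then 27 intron bases) or at the 3′ end (27 intron bases, then 3 exon bases). Capitals mark the first 6 and last 3 intron bases.
Clk1-204, intron of 871 bases at chr1:58420212-58421082, minus strand, 5′ end: gggGTATGAgtgccttttaaacgttctgaa
Clk4-213, intron of 1055 bases at chr11:51272023-51273077, plus strand, 5′ end: tcgGTATGAgtggtttgtttttatttggaa
Clk1-204, the same intron, 3′ end: ctggtgccgcccacttgacgtgtcCAGaag
Clk4-213, the same intron, 3′ end: cttggtgctgcccacttgccgttcCAGaag
Rsrp1-204, intron of 1302 bases at chr4:134925433-134926734, plus strand, 5′ end: gagGTAAGTgccttcaggaagctgctgcca
Rsrp1-204, the same intron, 3′ end: tatgtttaaaattctcttcctcttTAGcat
Srsf5-212, intron of 1229 bases at chr12:80947866-80949094, plus strand, 5′ end: cagGTTTGTtgaaatacagttttgagatat
Srsf5-212, the same intron, 3′ end: tccttaacataattgtcttgtgttAAGgat
The Clk1 and Clk4 windows, from a pair of related kinase genes, both begin their intron with GTATGA. They were identical at 18 of 30 positions at the 5′ end, with a longest shared run of 10 bases, and at 16 of 30 at the 3′ end. The longest run shared at the 3′ end was of 9 bases. It lies at a different position in each window, so it is not a run of the 16 identical positions. The Srsf5 intron ends in AAG, and that of Rsrp1 in TAG.

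Across all members, 1286 distinct introns of at least 30 bases were held whole. Their median length was 230.5 bases (quartiles 113 and 533, longest 5284), and the median of the 29242 other introns of the same genes was 1123 bases. Introns under 100 bases made up 21.0% of those held and 7.48% of all introns of these genes. The introns held by the retained-intron transcripts under 5 TPM had a median of 292 bases, with 17.8% under 100. The annotation supplies these models, and a long intron held whole needs a long model. Of the members with a whole intron, 581 held 1, 156 held 2 and 117 held 3 or more. Annotated introns that overlap, such as versions of 1 intron with different ends, count separately here and among the 1286. Rpl10a-207, for example, counts as holding 2, of 192 and 195 bases, that share their start.

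**Figure D1:**
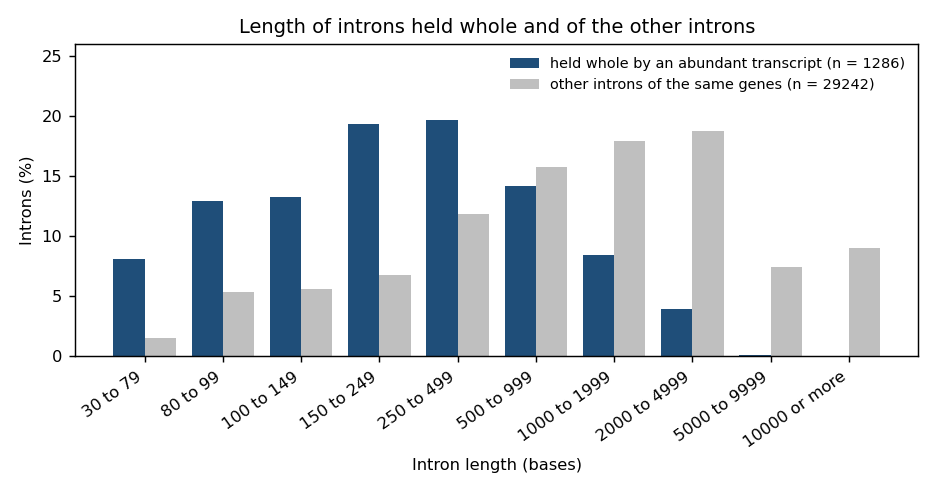
Percentage of introns (vertical axis) by length in bases (horizontal axis) for 1286 introns held whole by a member (dark bars) and 29242 other introns of protein-coding transcripts of the same genes (grey bars). The bars of the held introns are highest from 150 to under 500 bases, and those of the others from 1000 to under 5000. The bins differ in width, so the highest bars need not mark the most frequent lengths.

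The splice sites of the held introns were of the usual kind. GT at the start with AG at the end was found in 1264 of 1286 (98.3%), GC with AG in 16, and AT with AC in 1. The letters GTGAGT opened 15.2% of them and GTAAGT 9.02%, searched on the transcribed strand only, against 14.5% and 9.37% of the introns held by transcripts under 5 TPM. Their median GC content was 54.2%, against 50.8%. The minor spliceosome is a separate machinery for a small class of introns, many of which begin with ATATCCTT or GTATCCTT. Those letters opened 3 held introns (0.233%) and 0.489% of the introns held by the less abundant transcripts. The letters CTTAAC, found at the branch site of many such introns, were in the last 40 bases of the Lsm5 intron and not of the other 2, and in 1.01% of all held introns. The 5′ windows of the 3 are given, with the motif in capitals after 3 exon bases.
Tcea2-206, intron of 351 bases at chr2:181686247-181686597, plus strand: agtATATCCTTtgtacagggtatatagggt
Mapk11-204, intron of 199 bases at chr15:89145176-89145374, minus strand: actGTATCCTTggggagcagggtccagctg
Lsm5-202, intron of 280 bases at chr6:56703034-56703313, minus strand: tcaGTATCCTTtttaaaagcgggaatggtg
Tcea2-206, from a transcription elongation factor gene, was at 6.30 and 8.13 TPM and 22.0% ± 1.59 of its gene (19.3% ± 2.86 in the expected-count tables). Mapk11-204, from a p38 kinase gene, was at 5.59 and 11.9 TPM. Lsm5-202, from a gene of the U6 RNA-binding ring, was at 5.16 and 6.54 TPM and 82.4% ± 8.50 of its gene, but at 5.17% ± 1.61 in the expected-count tables.

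Most held introns interrupt the coding sequence. Of the 1286, 1163 (90.4%) lay between coding exons of a protein-coding transcript, and the frame could be read on into 1117. A stop codon in frame was found in 980 of these (87.7%), at a median of base 37 of the intron. In the introns held by transcripts under 5 TPM the share was 89.2%. Of the 137 introns without one, 26 had a length that is a multiple of 3, so that the frame goes on unshifted into the next exon.

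The other members keep intron sequence at an end. In 902 (33.5%) the 5′ end lay in an intron, in 681 (25.3%) the 3′ end, and in 189 (7.01%) both ends. Among the retained-intron transcripts under 5 TPM those classes made up 23.1%, 34.1% and 10.2%. A further 48 members fell in none of these classes and 22 belonged to genes with no protein-coding transcript. The class that starts in an intron had the highest median share of the gene's TPM, 16.2%, against 11.7% for members with a whole intron, but in the expected-count tables the medians were 8.09% and 8.57%.

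Most members were low and a few were high. The median level was 8.61 TPM, with 1090 members at 10 TPM or more, 135 at 50 or more and 63 at 100 or more. Of the members, 2131 reached 5 TPM in each library. Together the members held 4.64% of all TPM in replicate 1 and 4.90% in replicate 2, and 1.88% and 2.07% of the estimated counts, of which there were 33321992 and 33378822. In the expected-count tables, with 32850596 and 32012976 counts, the same transcripts held 1.71% and 1.87% of TPM. Part of that gap is in the scale, since short RNAs of the biotype misc_RNA took 32.6% and 33.5% of TPM in the expected-count tables and 0.00320% and 0.0144% in the others. Markers of cortical cell types were present: Slc17a7 of excitatory neurons was at 854 and 876 TPM, Gad1 of inhibitory neurons at 194 and 180, Aqp4 of astrocytes at 52.5 and 51.9, and Mbp of myelin at 507 and 423.

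The most abundant members came from genes of housekeeping and signalling proteins that the cortex expresses strongly. Of the 12 highest, 11 are described here, and 5 of them encode ribosomal proteins. Rps27-209 was at 522 and 342 TPM, Rpl31-204 at 456 and 356, Rpl37a-204 at 438 and 365, Rps25-203 at 372 and 331, and Rps16-203 at 349 and 319. In the expected-count tables Rps27-209, Rpl37a-204 and Rps25-203 were at between 1.17 and 6.18 TPM in each library, while Rps16-203 was at 124 and 119. Subunits of cytochrome oxidase gave a further 2: Cox6a1-202 at 494 and 481 TPM and Cox7b-203 at 400 and 351. Cox6a1-202 held 90.8% ± 4.75 of its gene in the first tables and 1.43% ± 0.916 in the second, where the protein-coding Cox6a1-201 took 98.6%. Cox7b-203 kept more, at 99.5% ± 0.0657 and 54.1% ± 1.65. The remaining members of this group were Ppia-204, of cyclophilin A (512 and 398 TPM, against 1.47 and 0.51), Tpt1-207 (407 and 295, against 3.20 and 4.56), AC121821.1-204, which encloses the small nucleolar RNA gene Snora74a (322 and 352, against 1.20 and 1.10), and Sncb-204 of beta-synuclein (425 and 383, against 77.7 and 67.7). All 11 were lower in the second tables, and 6 of them averaged under 5 TPM there.

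**Figure D2:**
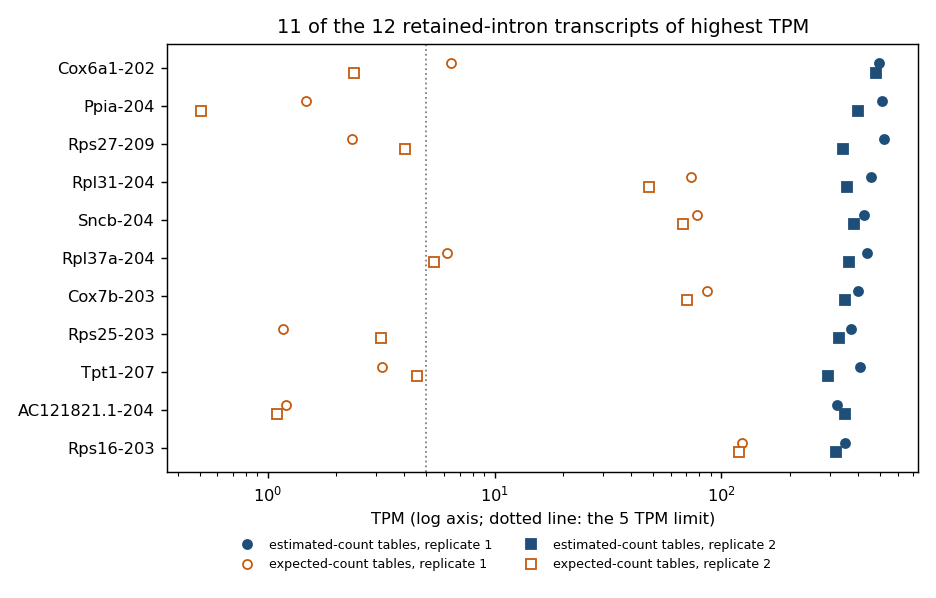
TPM on a log axis (horizontal) of 11 of the 12 members of highest mean TPM (vertical), with replicate 1 as circles and replicate 2 as squares, in the estimated-count tables (filled) and the expected-count tables (open). The filled points lie between 295 and 522 TPM, and the open points between 0.51 and 124.

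Some abundant members held a sizeable share of their gene in both quantifications, although their deposited TPM were lower in the second tables. Prkcb-208 (ENSMUSG00000052889.11, chr7:122633448-122634402, plus strand) is a single exon of 955 bases that starts in an intron of the gene of protein kinase C beta. It was at 182 and 191 TPM and 31.6% ± 0.664 of the gene, and at 179 and 178 TPM and 40.7% ± 0.113 in the expected-count tables. It ranked behind the protein-coding Prkcb-202, at 246 TPM in the first tables. Ctsb-202, of the lysosomal protease cathepsin B, was at 223 and 201 TPM and 63.2% ± 1.82 of its gene, against 135 and 124 TPM and 59.8% ± 0.901. Atp6v1d-202, of a subunit of the proton pump of vesicles and lysosomes, was at 198 and 177 TPM and 77.5% ± 2.11, against 89.8 and 80.5 TPM and 67.9% ± 2.10. Itm2b-202, of a membrane protein of neurons, was at 202 and 172 TPM and 27.1% ± 1.40, against 137 and 127 TPM and 38.5% ± 0.160. All 4 start in an intron of their gene and Ctsb-202 also ends in one, and none of the 4 holds a whole intron.

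Members were usually a minor part of their gene. The median share of the gene's summed TPM was 12.3% (quartiles 6.70% and 21.5%), at 11.8% in replicate 1 and 12.7% in replicate 2. Other transcripts of at least 5 TPM had a median of 35.3%. At least 10% of the gene was held by 1647 members and at least 20% by 741. At least 50% was held by 85 members (3.15%), against 36.4% of the other transcripts of at least 5 TPM. In 274 cases the member was the highest transcript of its gene, and in 109 of these it was so in both quantifications. The median share in the expected-count tables was 8.03%, with 54 members at 50% or more, of which 32 were also in the first 85. The 32 include Mrps26-201, Prelid1-202, Ncl-202, Ctsb-202, Atp6v1d-202, Cox7b-203 and Rps16-203. They also include Carmil2-201, of an actin regulator (79.6% ± 0.870 and 74.2% ± 0.724), and Mrpl57-202, of a mitochondrial ribosomal protein (86.3% ± 0.749 and 84.5% ± 0.177).

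**Figure D3:**
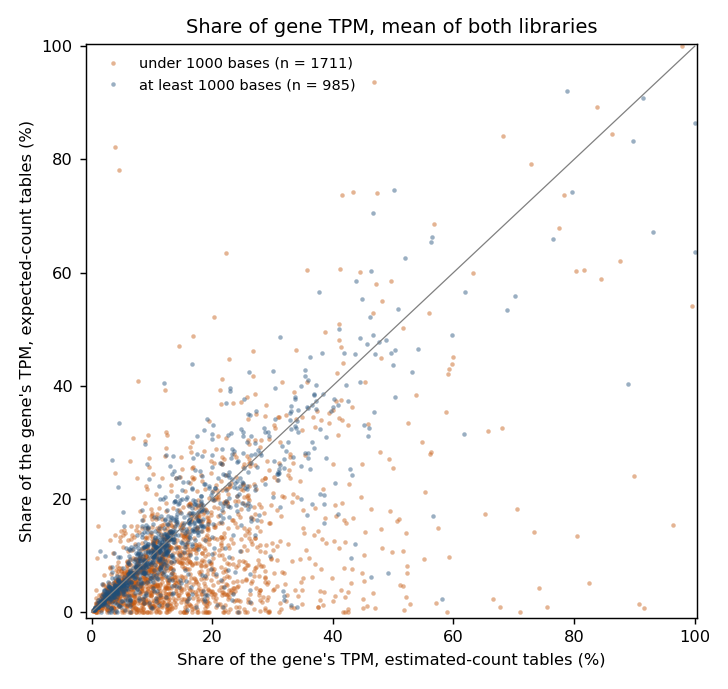
Each of the 2696 members by its mean share of the gene's TPM in the estimated-count tables (horizontal, percent) and in the expected-count tables (vertical, percent), with transcripts under 1000 bases in orange, those of 1000 bases or more in blue, and a line of equal shares. Blue points follow the line, and many orange points lie below it, where the second tables give a smaller share.

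The check against the expected-count tables gave different answers for short and long members. As deposited, 1022 members (37.9%) reached 5 TPM there, against 62% of the other transcripts of at least 5 TPM, and 263 (9.76%) were under 1 TPM, against 13.3%. Because misc_RNA affects the scale, the expected-count TPM were multiplied by 1.57 and 1.61 in the 2 libraries. Protein-coding rows then had the same sum in both tables. This alternative was added after seeing the data. It also takes in differences between the tables other than misc_RNA. Of the 20686 other transcripts of at least 5 TPM, 16784 are protein-coding, so their agreement is in part set by the scaling. On that common scale 1745 members (64.7%) reached 5 TPM, against 74.8% of the other transcripts, and 1802 (66.8%) lay within 2-fold of their first level, against 70%. The share of the gene, which needs no such scaling, lay within 10 percentage points for 2075 members (77.0%), against 59.4%. It was lower by 20 points or more for 204 members and higher by as much for 26. The median share was 12.3% for members and 35.3% for the other transcripts. A small share has less room to fall, so the 77.0% and 59.4% do not compare their agreement.

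Of members of at least 1000 bases, 790 of 985 (80.2%) reached 5 TPM on the common scale, against 85.1% of the other transcripts of that length. Their median share was 11.7% in the first tables and 10.7% in the second, and the median ratio of the 2 levels was 0.987. Of the 1711 shorter members, 955 (55.8%) reached it, against 48% of the other short transcripts, their median share went from 12.7% to 6.76%, and the ratio was 0.642. Between 300 and 500 bases the ratio was 0.536, and from 4000 bases on it was 1.03. The deposited effective lengths, by which counts are divided to give TPM, differed in the same way. The expected-count tables subtracted 99 bases from the length of every member, and the estimated-count tables a median of 336. A member of 300 to 500 bases had a median effective length of 139 bases in the first tables and 355 in the second, so the same count gives a higher TPM in the first. The counts themselves had a median ratio of 0.898, and 0.902 for the other transcripts. Members under 1000 bases held 75.4% of the members' TPM in the first tables and 60.7% in the second. The median length of members was 788.5 bases, against 2179.5 for the other transcripts.

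Transcripts of a gene overlap, so their reads must be divided among them. A median of 25.7% of a member's 31-base words occurred in no other annotated transcript, and 285 members had no word of their own. In 95 members at least 50% of the words also occurred in another gene, and 25 of those are of ribosomal proteins, whose genes have many processed copies in the genome. On the common scale the median ratio of the levels was 0.547 in these 95 and 0.820 in the 1754 members with no word in another gene. The counts of the 95 may be less certain for that reason, which was not tested. Among them, Ppia-204 had 69.7% such words, Rps27-209 52.9%, Rps20-201 56.2% and Rps16-203 74.8%. Whether the counting used the strand of the reads is not given in the sources used here, so reads of overlapping genes on opposite strands may be mixed. The posterior SD that accompanies an expected count was a median of 12.8% of it for members and 8.59% for the other transcripts. Other biotypes of transcripts of at least 5 TPM also differed between the tables. For transcripts annotated for nonsense-mediated decay (1058) the median share went from 19.2% to 9.77%, and for processed transcripts (1962) from 18.0% to 6.85%. For lincRNA transcripts (315) it went from 56.1% to 44.7%, while for protein-coding transcripts (16784) it stayed near, at 38.8% and 38.2%.

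Splicing factor genes often had a member. Among genes with a retained-intron form and at least 50 TPM, 41 of 49 genes of SR proteins and splicing regulators (83.7%) and 6 of 8 of the CLK and related kinases (75%) had one, against 49.4% of all such genes (1270 of 2573). Over all such genes of at least 5 TPM it was 27%. The 100 members in the SR list had a median share of 10.99% of the gene, and 9.68% in the expected-count tables, where 78 of them reached 5 TPM on the common scale. The 12 in the CLK list had medians of 16.7% and 14.0%. These lists were chosen with results of these data known, and the members were selected on their level, so the counts are a description.

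Rsrp1-204 (ENSMUSG00000037266.18), of an arginine- and serine-rich protein, was the highest of the splicing list, at 98.0 and 109 TPM. It held 46.3% ± 1.55 of the gene, and 60.3% ± 2.83 in the second tables, which put it at 67.1 and 73.2 TPM. The protein-coding Rsrp1-201 was at 17.9 TPM in the first tables and 38.6 in the second. Srsf5-212, of an SR protein, was at 44.5 and 58.6 TPM (19.5% ± 2.16, and 22.3% ± 2.03 in the second tables). Snrnp70-216, of the U1 particle protein that binds 5′ splice sites, was at 48.6 and 62.1 TPM (14.2% ± 0.798 and 20.5% ± 1.15). Ddx39b-204, of a helicase of splicing and export, was at 41.9 and 49.6 TPM (29.4% ± 2.84 and 31.2% ± 3.52). In these 4, replicate 2 was the higher, in both quantifications.

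Clk1-204, with 3 whole introns, was at 13.4 and 16.2 TPM, or 24.01% ± 1.78 of the gene (18.96% ± 0.273 in the second tables). Clk4-213, with 5, was at 7.80 and 9.20 TPM, or 10.4% ± 0.712 (12.8% ± 0.232). The highest Clk4 member was Clk4-207, which ends in an intron, at 14.5 and 18.0 TPM and 19.8% ± 0.721 (24.7% ± 1.04). Hipk1-205, of a related kinase, was at 19.2 and 22.6 TPM and 21.3% ± 2.66 (26.3% ± 0.188). The counts behind Clk1-204 were 654 and 776, and behind Clk4-213 426 and 494. A pair of Srsf7 members with the same intron of 874 bases, Srsf7-206 and Srsf7-207, were close in replicate 1 and apart in replicate 2. Srsf7-207 was at 7.13 and 12.1 TPM and Srsf7-206 at 6.46 and 3.91, and neither has a word of its own, so the split between them is uncertain. Ccnl2-203, of a cyclin of the splicing machinery, was at 6.88 and 11.1 TPM and 18.5% ± 3.82 (16.5% ± 2.30).

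**Figure D4:**
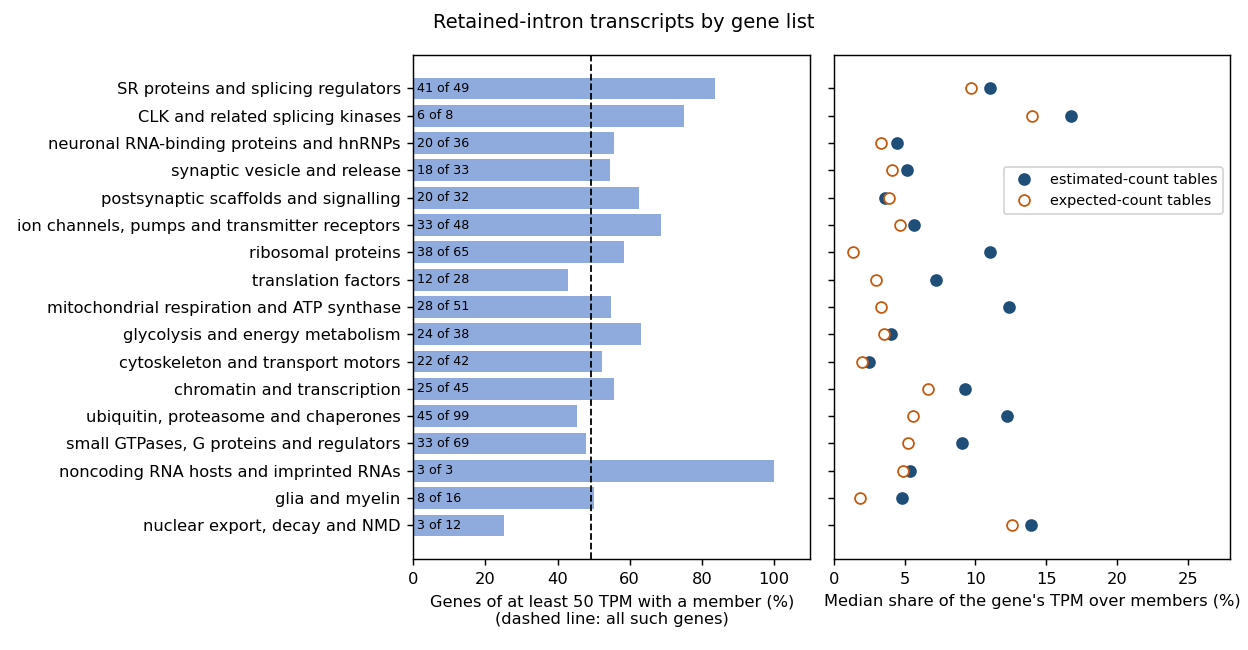
Left, percentage of genes of at least 50 TPM with a retained-intron form that have a member, by gene list (bars, with counts), and the 49.4% of all such genes as a dashed line. Right, the median share of the gene's TPM over the members of each list, in percent, in the estimated-count tables (filled) and the expected-count tables (open). The splicing lists stand at 83.7% and 75% with similar shares in both tables, while the ribosomal list falls from 11.02% to 1.35%.

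The lists of neuronal function had members with small shares, but this was not particular to them. The median was 2.46% in the cytoskeleton list and 4.02% in the glycolysis list, and 10.99% in the SR list. A fixed limit of 5 TPM admits smaller shares in genes of higher level, so these medians also follow gene level. The counts of genes with a member in the neuronal lists stand beside 49.4% over all genes of at least 50 TPM. Of the channel, pump and receptor genes of at least 50 TPM, 33 of 48 (68.8%) had a member, and the 51 members had a median share of 5.66% (4.69% in the second tables). Here 47 of 51 reached 5 TPM on the common scale. Gria2-206 and Gria2-204 belong to the gene of the AMPA receptor subunit that limits calcium entry. They were at 40.2 and 48.9 TPM and at 20.8 and 24.97, and at 13.2% ± 0.673 and 6.81% ± 0.272 of the gene. Their shares in the second tables were 14.0% ± 0.652 and 6.88% ± 0.255. The Gria2-204 intron is shown by its ends, as one that both tables weigh alike.
Gria2-204, intron of 440 bases at chr3:80707259-80707698, minus strand, 5′ end: gggGTAAGTttttaatgttacagtaattca
Gria2-204, the same intron, 3′ end: ctgttttttttctttcttcccttaCAGaaa
The postsynaptic list had a member in 20 of 32 genes (62.5%), with medians of 3.58% and 3.91%. The synaptic vesicle list had one in 18 of 33 (54.5%), with medians of 5.198% and 4.10%. In the latter, Dnm1-211, of the endocytic GTPase dynamin, was at 96.3 and 98.6 TPM and Ap2m1-204, of a clathrin adaptor, at 101 and 111. The hnRNP and neuronal RNA-binding list had one in 20 of 36 (55.6%), with Hnrnpa2b1-208 at 54.8 and 62.9 TPM.

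Ribosomal protein and respiratory genes held the members whose share changed most with the quantification. The 48 ribosomal members, from 38 of 65 genes of at least 50 TPM, summed to 4661 and 4759 TPM, and to 741 and 703 in the expected-count tables. Their median share went from 11.02% to 1.35%, and their median ratio on the common scale was 0.169. The 39 members of the respiration list summed to 2558 and 2392 TPM, and to 470 and 448. Their median share went from 12.4% to 3.35%. Each of these lists had 9 members with at least 50% of the gene in the first tables. In 26 of the 48 ribosomal members, and 2 of the 39 others, at least 50% of the words occurred in another gene, and the median lengths were 656.5 and 620 bases.

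Changes of share in the opposite direction were fewer among members, which were selected as high in the first tables. The same counts over other transcripts are not given here, so this describes the members alone. Rps23-202 went from 3.90% of its gene to 82.2%, and Atp5j-208, of an ATP synthase subunit, from 4.55% to 78.1%. Both are listed at 0 in replicate 1 of the estimated-count tables, with 46.2 and 28.8 TPM in replicate 2. The second tables gave 74.7 and 65.7 TPM for the first and 129 and 125 for the second. An estimate of 0 in 1 animal was found for 26 members, 22 of them at 0 in replicate 1 and 4 in replicate 2. The value in the other animal was high by the rule, since a member must average at least 5 TPM. The frequency of such zeros among other transcripts is not given, so the 26 and their split between replicates describe the members alone. Of the 26, 14 averaged at least 5 TPM in the expected-count tables. Gnb2-213, of a G protein beta subunit, was at 0 and 69.2 TPM in the first tables and at 74.98 and 67.0 in the second, and Rps19-206 at 0 and 102 and at 69.2 and 72.5. For Slc25a3, the mitochondrial phosphate carrier, Slc25a3-204 was listed at 0 and 21.5 TPM and Slc25a3-207 at 24.3 and 0, while the second tables gave 5.38 and 8.16, and 18.5 and 19.3. No fold in the estimated counts is given for any of the 26.

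Some genes had several members. In 1347 genes there was 1, in 344 there were 2, and in 188 there were 3 or more. The members of a gene together held at least 50% of its TPM in 143 genes (84 in the expected-count tables). Eif4a2, of a translation helicase, had the most, 8 of its 15 retained-intron forms, at 115 and 205 TPM in sum and 21.9% ± 6.10 of the gene, but 9.79% ± 0.800 in the second tables. Snrnp70 had 6 members at 129 and 165 TPM, or 37.8% ± 2.19 of the gene, and 49.9% ± 0.499. Tnik, of a kinase of the postsynapse, had 5 at 70.5 and 85.7 TPM, or 50.2% ± 1.87, and 50.6% ± 0.190. Spaca6 and Chuk had 5 each, with 73.4% ± 4.30 and 74.6% ± 3.58 of the gene, and 70.5% ± 2.32 and 63.5% ± 1.30. Tia1, of a splicing and stress granule protein, had 5, with 40.5% ± 0.172 and 39.9% ± 4.86. Arpp21 had 6 members, at 287 TPM in replicate 1 and 150 in replicate 2, or 23.6% ± 11.1 of the gene. In the expected-count tables, where they held 29.2% ± 2.41, the spread between the animals was smaller.

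The 2 animals were compared by the log2 ratio of replicate 2 over replicate 1, with no p-value since each side is 1 animal. The ratio was taken for 2688 members with a mean count of at least 10. In replicate 2, 173 (6.44%) were at least 2-fold higher and 95 (3.53%) at least 2-fold lower. Over all transcripts with such a count the percentages were 8.85% and 6.97%. Over the other transcripts of at least 5 TPM they were 3.75% and 3.76%. Members were higher in replicate 2 by any amount in 1705 cases (63.4%), against 52.1% of all transcripts. For the other transcripts of at least 5 TPM it was 37.4%. The median log2 ratio was 0.14 for members, 0.25 for retained-intron transcripts under 5 TPM, 0.02 for all transcripts and -0.08 for protein-coding transcripts of at least 5 TPM. In the expected counts the members' median was 0.19, and 67.8% were higher. Of the 135 members at 50 TPM or more, 54 (40%) were higher in replicate 2, with a median of -0.08, and 52.8% in the expected counts. LincRNA transcripts of at least 5 TPM had a median of 0.18 with 67.0% higher (0.06 and 59.3% in the expected counts). The shift differed by class: the median was 0.24 for members that end in an intron and 0.02 for those that start in one, at 0.21 and 0.11 in the expected counts. Of the SR list, 80 of 100 members were higher in replicate 2, of the hnRNP list 39 of 44, of the ribosomal list 24 of 48 and of the respiration list 15 of 39. What goes with this shift was not tested.

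**Figure D5:**
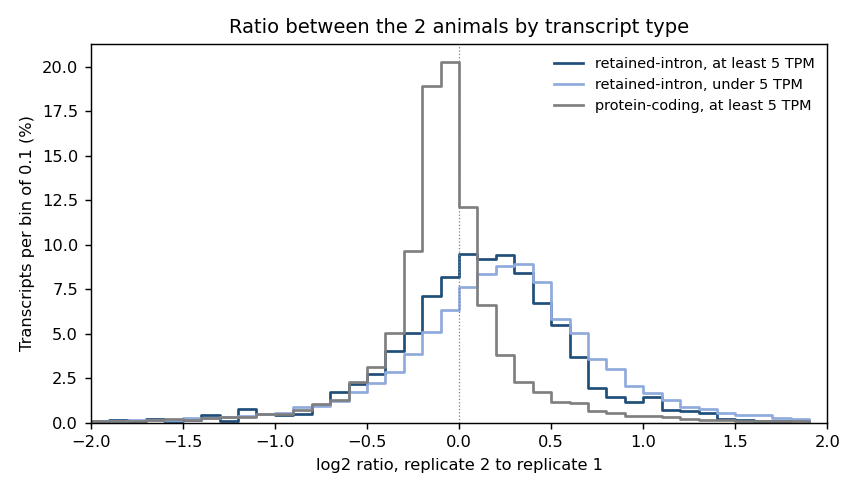
Percentage of transcripts per bin of 0.1 (vertical axis) by log2 ratio of replicate 2 over replicate 1 (horizontal axis), for members, for retained-intron transcripts under 5 TPM, and for protein-coding transcripts of at least 5 TPM. Both retained-intron curves lie to the right of the protein-coding one, with medians of 0.14, 0.25 and -0.08.

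The share of the gene was higher in replicate 2 for 1698 members and lower for 996, and it lay within 5 percentage points for 2061 (76.4%). It differed by more than 20 points for 42 members, and for 11 in the expected-count tables. In 489 members the mean share was under 5%, which leaves little room for a larger fall. The same counts over other transcripts are not given here, so these describe the members alone. Ratios of 2-fold seldom recurred at that size. Of the 268 members that were 2-fold different, 47 were again 2-fold different in the same direction in the expected counts. There 64 had the opposite sign, by any amount, and 47 had too few counts to be compared. The rest kept their direction at less than 2-fold. How often such ratios recur among other transcripts is not given here. Mapk11-204, one of the 3 members with an intron that opens with minor-type letters, lay just under the 2-fold limit and kept its direction, with 217 and 453 estimated and 190 and 437 expected counts. Its log2 ratio was 0.996 (95% interval 0.77 to 1.24) in the former and 1.19 in the latter. Cryab-204, of a small heat shock protein, had a log2 ratio of -4.45 (-7.48 to -3.59) in estimated counts of 104 and 3.21, but expected counts of 205 and 146. These intervals allow for counting error alone. They leave out the division of reads among overlapping transcripts. Without molecular identifiers, several reads may also stem from 1 molecule.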

How the data were processed

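Total RNA of 2 left cerebral cortex samples (1 group, 1 library per animal) was analysed from the deposited transcript tables. Per the file headers and the description files beside them, the authors gave estimated counts, quantified from the reads of 1 sequence file, and expected counts, quantified from alignments to the transcriptome. Both used build mm10 with GENCODE M21, and both tables hold deposited TPM, scaled to a fixed sum over all rows, spike-ins included. The quantification programs, and whether the 1 file held all reads, were not given in the sources used here. The numbered males are taken as separate animals, although they share a donor record, which is read here as the strain.

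Spike-in rows were left out. A gene's sum runs over all its transcript rows. Introns are those of protein-coding transcripts of the gene in the GENCODE M21 annotation, held whole when inside 1 exon of a member. Estimated counts were rounded, and log2 ratios come from TMM CPM (edgeR 4.0.16, R 4.3.3, prior count 2, mean count of at least 10), tested on simulated data. Intervals are exact binomial, at 95%. Alternatives were DESeq2 1.42.0 size factors, other pseudocounts and limits, other gene sums, and each animal alone. The members and gene lists were chosen with earlier results of these data known. Named members follow a rule: the highest by TPM, by share, by list, by change of share and by ratio, those nearest the limit, and genes with 3 or more members. Members whose sequences are printed, Itm2b-202, Gria2-206, Snrnp70-216, Ddx39b-204, Srsf7-206, Srsf7-207, Ccnl2-203 and Mapk11-204 were chosen after their values were seen. Some members are not reported here by name.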

Additional observations from a re-analysis of the deposited data

How the results depend on the processing

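The number of members was 2696 and became 7242 with a limit of 2 TPM, 1090 with 10 TPM, and 1340 when the limit of 5 TPM was applied to the expected-count tables. It was 2131 with 5 TPM in each library, 2526 in the expected-count tables on the common scale, and 2411 to 3063 with either replicate alone. The median share of 12.3% became 18.0% when the gene's sum held only its protein-coding rows and the member, 4.15% as a share of estimated counts, 8.03% in the expected-count tables, 7.85% at 2 TPM and 17.7% at 10 TPM, and 11.8% to 12.7% with 1 replicate left out. The 85 members with at least 50% of the gene became 266 with the protein-coding sum and 54 in the expected-count tables, and 89 with either replicate left out. The 268 members 2-fold different between the animals became 45 with a minimum mean count of 100. They ranged from 219 to 289 under the other 6 alternatives. The log2 ratio changed sign in the expected counts for Slc25a3-207 (0.025) and Gnb2-213 (-0.19), each listed at 0 in 1 library of the estimated-count tables. The naming rule and additions to it took 767 members, most of them not named in the text. Of these, 713 had a lower deposited TPM in the expected-count tables and 54 a higher one. By more than the SD between the animals, 635 moved. Members were selected as high in the first tables. The median ratio of deposited TPM was 0.511 for all members, and 0.620 for the other transcripts of at least 5 TPM. On the common scale 854 of the 2696 members were higher. The causes of these changes were not tested. No paired analysis was possible because there is 1 group. Depth limits the lowest members most: the median mean count was 96.1, and the lowest 7.50.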

Other observations

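Some members enclose genes of small RNAs, which are processed from longer host transcripts. In 45 members (1.67%) a small RNA gene lay inside an exon, against 154 (0.804%) of the retained-intron transcripts under 5 TPM. Of these 45, 24 hold a microRNA gene and 20 a small nucleolar or Cajal body RNA gene. A330023F24Rik-204, which holds Mir29b-2 and Mir29c, was at 22.1 and 29.5 TPM and 35.4% ± 0.361 (SD, n = 2) of its gene, and at 15.7 and 20.9 TPM and 41.7% ± 0.143 in the expected-count tables. Gas5-218, which holds 6 small RNA genes, was at 7.87 and 9.90 TPM and 4.34% ± 0.580 of the gene, with 5.31% ± 0.555 in the second tables. Gas5 is a host of small nucleolar RNAs whose exons encode no known protein.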
